A study of Mus musculus with 4 samples.

Results

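The genes described here are 30 mouse genes of cholesterol and fatty acid synthesis, chosen by name as a pathway list, and all 30 were found among the 14405 genes of the expression matrix. They comprise 18 enzymes of sterol synthesis, 7 enzymes of fatty acid synthesis, 4 regulators of the SREBP transcription factors and the sterol transport gene Stard4. Bulk RNA sequencing was done on dorsal root ganglia (DRGs), which hold the cell bodies of sensory neurons, of mixed-strain mice at the age of 10 weeks. There were 2 wild type samples and 2 mutant samples of the genotype Prdm12-/Fl; AvilCreERT2/+, with 1 null and 1 floxed allele of Prdm12, a transcription factor of pain-sensing neurons, and 1 copy of a tamoxifen-inducible Cre under control of Avil, a gene of sensory neurons. The Cre is thus aimed at neurons, while bulk RNA also comes from glia, fat and other cells. Whether the wild types carried the Cre, when tamoxifen was given, and whether each sample came from 1 mouse or from pooled mice could not be taken from the labels.

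Cholesterol is built from acetyl-CoA through mevalonate, squalene and lanosterol. Fatty acids are built from acetyl-CoA by acetyl-CoA carboxylase and fatty acid synthase, then lengthened by elongases and desaturated by stearoyl-CoA desaturases. Both pathways are switched on by SREBP proteins, which Scap escorts from the endoplasmic reticulum to be cleaved when sterols are low and which Insig1 holds back when sterols are high. In peripheral nerve the heaviest users are Schwann cells, whose myelin is rich in cholesterol and very long chain lipids, while fat cells around the nerve also make fatty acids.

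SREBP proteins act at promoters together with NF-Y, which binds the letters CCAAT, and with Sp1, so the promoters of the members were searched for these letters. RefSeq promoter windows of 300 bases (GRCm38.p6, the assembly of mm10) were found for 24 of the 30 members, in 31 windows. Fdps, Fdft1, Sqle, Scd1, Scd2 and Stard4 had no entry. The motif TCACNCCAC, a sterol regulatory element, was searched on both strands and matched 1 of the 31 windows, that of Hmgcs1, against 1.18% of 13594 windows of the genes tested. CCAAT, on either strand, matched 21 of the 31 windows (67.7%), against 37.2% of the windows of the genes tested. The sterol arm held it in 14 of 18 windows (77.8%), the fatty acid arm in 3 of 6 and the SREBP regulators in 4 of 7. GGGCGG, the letters of the Sp1 box, matched 24 of 31 windows (77.4%), against 60.6% of the windows of the genes tested. By arm it matched 15 of 18 windows (83.3%) for sterol synthesis, 3 of 6 (50%) for fatty acid synthesis and 6 of 7 for the SREBP regulators. These matches describe letters only and do not show that a factor was bound. Printed here are the 250 bases before the start of 4 members, with matches to TCACNCCAC and to CCAAT on either strand in capitals. Hmgcs1 (chr13:119690101-119690350, plus strand) is shown because it alone of the 24 members held a match to TCACNCCAC, which begins 137 bases before the start. Variants of these letters were not searched. Mvk (chr5:114444019-114444268, plus strand) held 5 CCAAT matches, Fasn (chr11:120824548-120824797, minus strand) stands for the fatty acid arm with 3 matches, of which a pair overlaps, and Scap (chr9:110333038-110333287, plus strand) is a regulator with none. The last 3 were chosen after the matches were seen.
Hmgcs1: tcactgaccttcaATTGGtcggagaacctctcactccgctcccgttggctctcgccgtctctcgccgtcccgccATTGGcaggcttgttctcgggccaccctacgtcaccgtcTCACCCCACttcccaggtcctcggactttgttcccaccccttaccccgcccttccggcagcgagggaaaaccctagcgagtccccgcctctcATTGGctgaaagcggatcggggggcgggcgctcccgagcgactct
Mvk: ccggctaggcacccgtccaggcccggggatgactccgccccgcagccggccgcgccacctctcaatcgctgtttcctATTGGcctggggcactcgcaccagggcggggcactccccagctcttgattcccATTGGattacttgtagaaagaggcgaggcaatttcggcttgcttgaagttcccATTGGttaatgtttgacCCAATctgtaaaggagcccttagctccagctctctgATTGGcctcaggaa
Fasn: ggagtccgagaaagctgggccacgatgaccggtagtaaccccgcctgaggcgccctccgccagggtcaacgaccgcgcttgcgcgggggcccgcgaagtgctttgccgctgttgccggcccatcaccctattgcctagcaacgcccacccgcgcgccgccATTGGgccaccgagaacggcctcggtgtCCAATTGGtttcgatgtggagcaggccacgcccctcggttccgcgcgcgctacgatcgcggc
Scap: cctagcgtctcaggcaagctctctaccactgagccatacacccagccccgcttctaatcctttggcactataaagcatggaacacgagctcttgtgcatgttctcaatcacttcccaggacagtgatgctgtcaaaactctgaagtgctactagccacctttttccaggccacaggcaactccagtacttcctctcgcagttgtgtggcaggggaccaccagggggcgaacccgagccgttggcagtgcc

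Levels are in FPKM, that is fragments scaled by transcript length and by library size. The first value of each genotype is that of its library 1 and the second that of its library 2. Totals ran from 620018 to 686830 FPKM per library. The sequencing depth behind them is unknown, so no counting interval is given. As a check of the labels, Prdm12 was at 7.58 and 10.7 FPKM (wild type) against 1.05 and 1.495 FPKM (mutant). Avil was at 78.4 and 124 FPKM (wild type) against 102 and 164 FPKM (mutant). All 14 sensory neuron markers were detected in each library, at summed levels of 4247 to 7739 FPKM. Libraries of the same genotype differed in the RNA levels of tissue markers. Mutant 2 held the most myelin, fat and skeletal muscle RNA and the least fibroblast RNA, and wild type 2 was the only library with Xist (21.1 FPKM, against 0.0295 FPKM or less in the others). In bulk RNA, fewer cells of a type cannot be told apart from less RNA per cell.

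Between genotypes, the lipid synthesis genes had higher mean levels in the mutants, the difference rested on 1 library, and no gene passed the test. Of the 30 members, 27 had a mutant minus wild type difference above 0, with a median of 0.25 on the log2(FPKM + 1) scale, where the median over all 14040 genes tested was -0.0048. With limma over all genes, 0 of 30 members passed an adjusted p of 0.05, and 0 of 30 were under an unadjusted p of 0.05. Over all genes tested 0% passed the adjusted threshold, and 612 genes (4.36%) were under an unadjusted p of 0.05. In 28 of 30 members (93.3%) mutant 2 was the highest of the 4 libraries, against 36.4% of all genes tested. Both mutants lay above both wild types in 1 member, Nsdhl, against 12.5% of all genes tested, and both lay below in 0 members, against 19.6%. After rescaling by median ratios that count was 3 members higher and 0 lower, against 15.7% and 15.9% of all genes, and after quantile normalization it was 5 higher and 0 lower, against 16.7% and 15.4%. Without mutant 2 the members' median difference was -0.034, with 9 of 30 above 0, and without mutant 1 it was 0.53, with 29 of 30 above 0. The medians over all genes in these fits were -0.040 without mutant 2 and 0.025 without mutant 1. For 2 mutant and 2 wild type samples, the smallest p of an exact permutation test, two-sided, is 0.333.

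**Figure D1:**
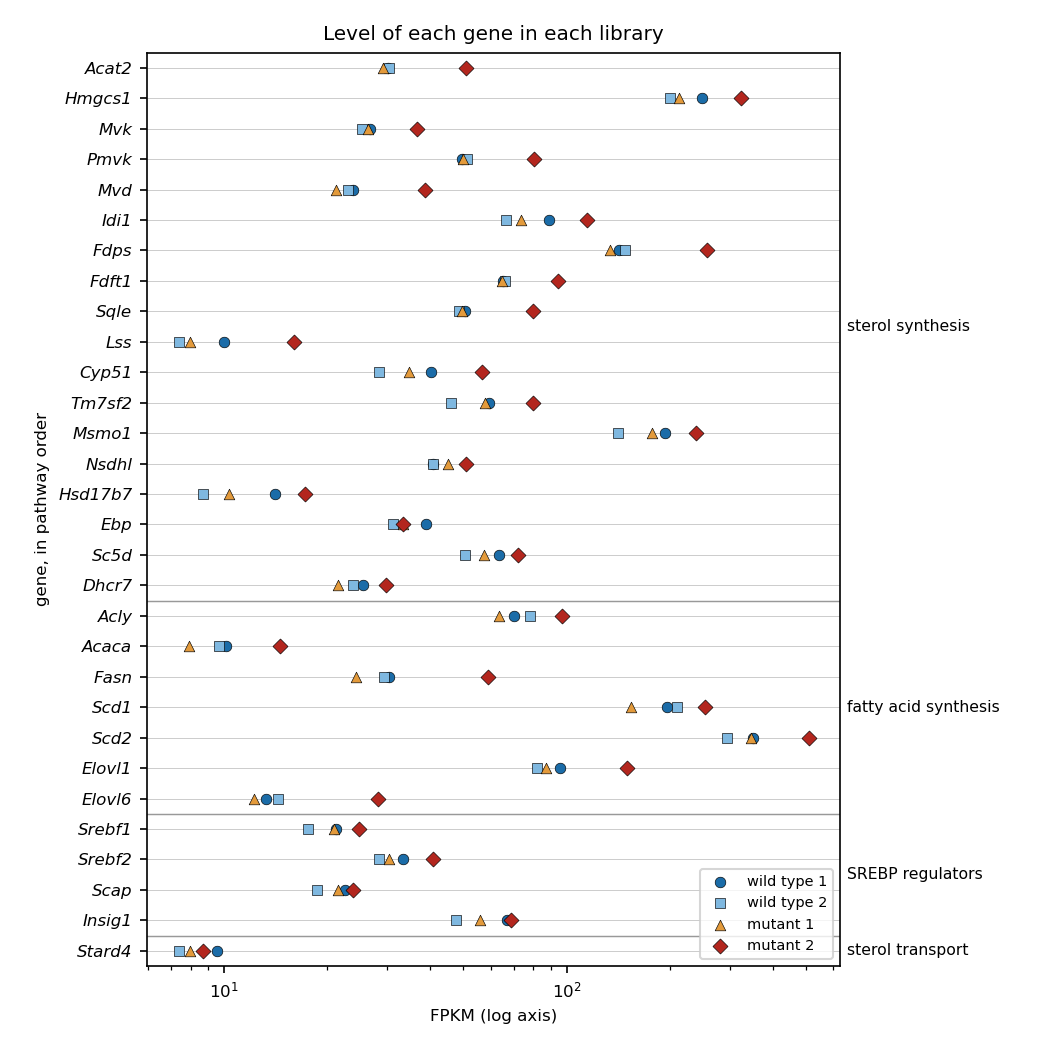
FPKM on a log axis (horizontal) of each of the 30 genes (vertical, in pathway order), with 1 point for each of the 4 libraries. Mutant 2 is the rightmost point in 28 of 30 genes, and Ebp and Stard4 are the exceptions, with wild type 1 highest.

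Most of the early sterol enzymes, from acetyl-CoA to farnesyl diphosphate, were nearly level across 3 libraries and high in mutant 2. Acat2, which joins acetyl-CoA units, was at 30.2 and 30.3 FPKM (wild type) against 29.2 and 51.0 FPKM (mutant). Fdps, which makes farnesyl diphosphate, was at 142 and 148 FPKM (wild type) against 134 and 257 FPKM (mutant). In both genes mutant 1 was the lowest library and mutant 2 the highest, so the groups overlapped. The mevalonate enzymes Mvk, Pmvk and Mvd were likewise close together in 3 libraries and highest in mutant 2, with a different lowest library in each. Mvk, mevalonate kinase, was at 26.6 and 25.2 FPKM (wild type) against 26.3 and 36.5 FPKM (mutant). Pmvk, phosphomevalonate kinase, was at 49.7 and 51.1 FPKM (wild type) against 49.9 and 80.3 FPKM (mutant). Mvd, the mevalonate diphosphate decarboxylase, was at 23.8 and 23.03 FPKM (wild type) against 21.3 and 38.7 FPKM (mutant). For these 5 genes mutant 2 stood at 1.40 to 1.82 times the mean of the other 3 libraries.

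Hmgcs1 and Idi1 differed from them in wild type 2. Hmgcs1, the HMG-CoA synthase that feeds the pathway, was the most abundant sterol enzyme, at 248 and 200.2 FPKM (wild type) against 213 and 323 FPKM (mutant). Its group means were 224 ± 33.9 and 268 ± 77.9 FPKM (SD, n = 2 each), a log2 difference of 0.24 with a standard error of 0.25 (limma adjusted p = 0.994). Idi1, the isopentenyl diphosphate isomerase, was at 88.9 and 66.5 FPKM (wild type) against 73.4 and 115 FPKM (mutant). In both, wild type 2 was the lowest library rather than mutant 1.

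The squalene steps divided in the same way. Fdft1, squalene synthase, was at 65.3 and 66.2 FPKM (wild type) against 64.9 and 94.7 FPKM (mutant). Sqle, squalene epoxidase, was at 50.6 and 48.4 FPKM (wild type) against 49.5 and 79.8 FPKM (mutant). Lss, lanosterol synthase, which closes the sterol rings, was at 10.0 and 7.39 FPKM (wild type) against 7.96 and 15.97 FPKM (mutant). Mutant 2 stood at 1.89 times the mean of the other 3 libraries for Lss, the highest such ratio in the sterol arm. Its log2 difference was 0.36 with a 95% interval of -0.48 to 1.19 (limma adjusted p = 0.994).

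The enzymes that turn lanosterol into cholesterol were mostly lowest in wild type 2. Cyp51, the lanosterol demethylase, was at 40.1 and 28.4 FPKM (wild type) against 34.7 and 56.5 FPKM (mutant). Its log2 difference of 0.38 (standard error 0.29, limma adjusted p = 0.994) was the largest of the sterol arm. Msmo1, the methylsterol oxidase, was at 194 and 141 FPKM (wild type) against 178 and 238 FPKM (mutant). Hsd17b7, a sterol ketoreductase, was at 14.1 and 8.71 FPKM (wild type) against 10.4 and 17.2 FPKM (mutant). From wild type 1 to wild type 2 these 3 genes stepped by -0.48, -0.45 and -0.63 on the log2(FPKM + 1) scale. Tm7sf2, a sterol reductase, was at 59.2 and 46.1 FPKM (wild type) against 57.7 and 79.6 FPKM (mutant). Sc5d, the lathosterol desaturase, was at 63.4 and 50.5 FPKM (wild type) against 57.6 and 72.2 FPKM (mutant). In these genes wild type 1 lay above mutant 1 and below mutant 2.

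Nsdhl, Ebp and Dhcr7 were the members of the late steps that stood out from this shape. Nsdhl, a sterol dehydrogenase that removes the C4 methyl groups, was at 40.7 and 40.7 FPKM (wild type) against 45.0 and 51.0 FPKM (mutant), the only member whose groups did not overlap. Its log2 difference was 0.23 with a 95% interval of -0.15 to 0.61 (limma adjusted p = 0.994). Ebp, the sterol isomerase, was at 38.9 and 31.2 FPKM (wild type) against 33.4 and 33.3 FPKM (mutant). It was the only one of the 18 sterol enzymes not highest in mutant 2, where it stood at 0.966 times the mean of the other libraries. Nsdhl and Ebp are X-linked. Dhcr7, which makes cholesterol from its last precursor, was at 25.5 and 23.9 FPKM (wild type) against 21.5 and 29.8 FPKM (mutant), with a log2 difference of 0.036.

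Over the 18 sterol enzymes the median log2 difference was 0.27, with 17 above 0. Without mutant 2 the median was -0.033, and without mutant 1 it was 0.58.

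**Figure D2:**
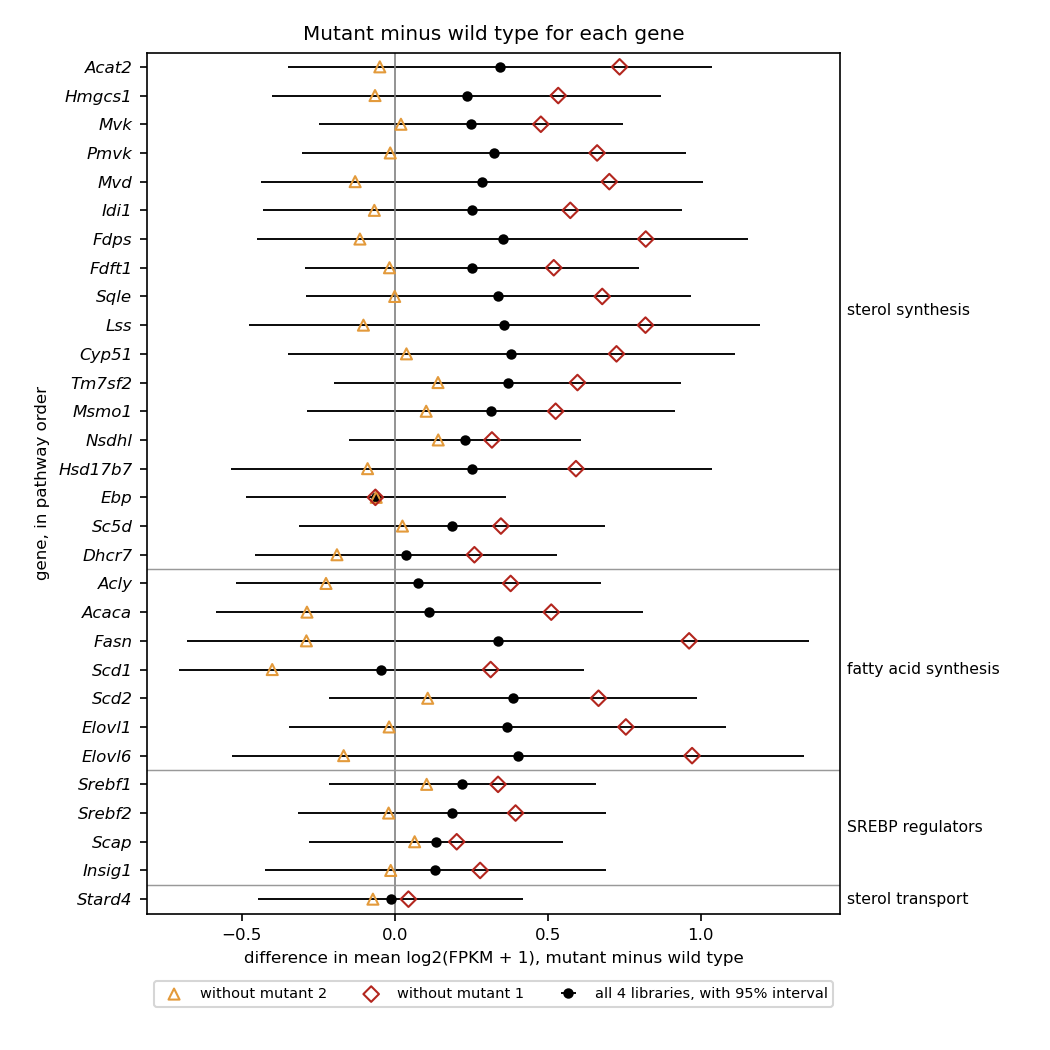
Difference in mean log2(FPKM + 1), mutant minus wild type (horizontal), for each gene (vertical), with filled points and 95% limma intervals from all 4 libraries and open symbols for fits without mutant 2 (triangles) or without mutant 1 (diamonds). Every interval includes 0, and the triangles gather around 0 for the sterol enzymes and below 0 for most of the fatty acid enzymes.

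The fatty acid arm had the largest steps between the mutant libraries. Fasn, fatty acid synthase, was at 30.3 and 29.3 FPKM (wild type) against 24.2 and 59.1 FPKM (mutant). Elovl6, which lengthens palmitate, was at 13.3 and 14.4 FPKM (wild type) against 12.2 and 28.1 FPKM (mutant). For each, mutant 2 stood at 2.11 times the mean of the other 3 libraries, the highest ratio among the 30 members, while mutant 1 was the lowest library. The group means of Fasn were 29.8 ± 0.724 and 41.7 ± 24.6 FPKM (SD, n = 2 each), and its log2 difference of 0.34 had a 95% interval of -0.68 to 1.35 (limma adjusted p = 0.994). Without mutant 2 that difference was -0.29.

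Acly and Acaca, which supply the building blocks of fatty acids, were also lowest in mutant 1. Acly, the ATP citrate lyase, was at 70.5 and 78.4 FPKM (wild type) against 63.5 and 96.9 FPKM (mutant). Acaca, acetyl-CoA carboxylase, was at 10.1 and 9.65 FPKM (wild type) against 7.93 and 14.5 FPKM (mutant).

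The desaturases Scd1 and Scd2 add the same double bond, Scd1 being the main form in fat and Scd2 the main form in nervous tissue, and they ordered the libraries differently. Scd1 was at 196 and 210.2 FPKM (wild type) against 154 and 253 FPKM (mutant), lowest in mutant 1. Scd2 was the most abundant of the 30 members, at 349 and 293 FPKM (wild type) against 345 and 508 FPKM (mutant), lowest in wild type 2. Scd1 had a log2 difference of -0.043 and Scd2 of 0.39 (limma adjusted p = 0.994 for each). Elovl1, which makes the very long chains of sphingolipids, was at 95.7 and 81.8 FPKM (wild type) against 87.3 and 150.1 FPKM (mutant), lowest in wild type 2 like Scd2. Reads shared between the similar Scd1 and Scd2 transcripts could have been split between them, so their single values are uncertain.

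Over the 7 fatty acid enzymes the median log2 difference was 0.34, with 6 above 0. Without mutant 2 the median was -0.22, and without mutant 1 it was 0.67.

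The SREBP regulators stood less far up in mutant 2 than most enzymes did. Srebf1, whose products favour fatty acid genes, was at 21.3 and 17.6 FPKM (wild type) against 20.9 and 24.7 FPKM (mutant). Srebf2, whose product favours sterol genes, was at 33.3 and 28.4 FPKM (wild type) against 30.3 and 40.8 FPKM (mutant). Both were lowest in wild type 2 and highest in mutant 2. Scap, the escort protein, was at 22.6 and 18.7 FPKM (wild type) against 21.5 and 23.8 FPKM (mutant). Insig1, the retention protein and itself an SREBP target, was at 66.8 and 47.7 FPKM (wild type) against 56.0 and 68.7 FPKM (mutant). Mutant 2 stood at 1.14 to 1.33 times the mean of the other 3 libraries for the 4 regulators, against a median of 1.49 for the sterol enzymes and 1.57 for the fatty acid enzymes, a difference that was not tested. The median log2 difference was 0.16, with 4 of 4 above 0. Without mutant 2 the median was 0.026, without wild type 2 it was 0.039, and without mutant 1 it was 0.31. Without wild type 1 it was 0.32.

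Stard4, a carrier of cholesterol between membranes, was at 9.57 and 7.37 FPKM (wild type) against 7.95 and 8.70 FPKM (mutant). Its log2 difference was -0.013 (limma adjusted p = 0.995), and like Ebp it was highest in wild type 1.

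Markers of myelin and of fat were both highest in mutant 2, as were 28 of the 30 members. All 16 myelin and Schwann cell markers and all 18 adipocyte markers were highest there. The myelin markers summed to 10817 and 8709 FPKM (wild type) against 10712 and 22193 FPKM (mutant). The adipocyte markers summed to 645 and 1142 FPKM (wild type) against 389 and 3224 FPKM (mutant), so mutant 2 held the most of both and mutant 1 the least fat. Among the fat markers Fabp4, a fatty acid carrier of fat cells, was at 249.5 and 484 FPKM (wild type) against 153 and 1328 FPKM (mutant). The adipokine gene Adipoq, a defining marker, was at 16.02 and 27.2 FPKM (wild type) against 10.9 and 94.2 FPKM (mutant). No myelin or adipocyte marker was at 0 in any library. The part of either cell type in the members' levels was not tested.

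The other 3 libraries set the myelin list apart from the fat list, since myelin and fat order them differently. Fat markers were lowest in mutant 1 in 14 of 18 genes and myelin markers in 1 of 16. Myelin markers were lowest in wild type 2 in 10 of 16 genes and fat markers in 1 of 18. The sterol arm was lowest in wild type 2 in 12 of 18 genes and in mutant 1 in 5 of 18, and all 4 SREBP regulators were lowest in wild type 2. The fatty acid arm was lowest in mutant 1 in 5 of 7 genes, namely Acly, Acaca, Fasn, Scd1 and Elovl6, and in wild type 2 for Scd2 and Elovl1. Over all genes tested, 15.6% were lowest in wild type 2 and 23.3% in mutant 1. A low level in wild type 2 was not particular to myelin. Erythrocyte markers were lowest there in 4 of 5 genes and satellite glia markers in 3 of 7. Macrophage markers did not share this, with 1 of 6 (16.7%), near the 15.6% of all genes tested. With mutant 2 set aside, fibroblast and meningeal markers were lowest in wild type 2 in 5 of 8 genes, against 3703 of all 14040 genes tested. Skeletal muscle markers were lowest in mutant 1 in 10 of 10 genes, as most fat markers were, and their part was not tested either. Sensory neuron markers were highest in mutant 2 in 12 of 14 genes and lowest in wild type 1 in 12 of 14, while 1 of the 30 members was lowest there. Some marker lists also separated the genotypes. In 10 of 16 myelin markers the genotypes did not overlap, with the mutants on the higher side, as in 12.5% of all genes tested and in 1 of the 30 members. Their median log2 difference was 0.59, with 16 of 16 above 0 and 0 past the adjusted threshold with limma. None of the 17 adipocyte markers tested separated in this way, and all 5 erythrocyte markers tested did, with the mutants higher. Hbb-b1, a haemoglobin gene, was at 1470 and 1573 FPKM (wild type) against 2912 and 2786 FPKM (mutant), and 0 of the 5 passed the adjusted threshold with limma. Wild type 2, the lowest library for most sterol genes, was also the only one with Xist, and the part of sex in these levels was not tested.

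**Figure D3:**
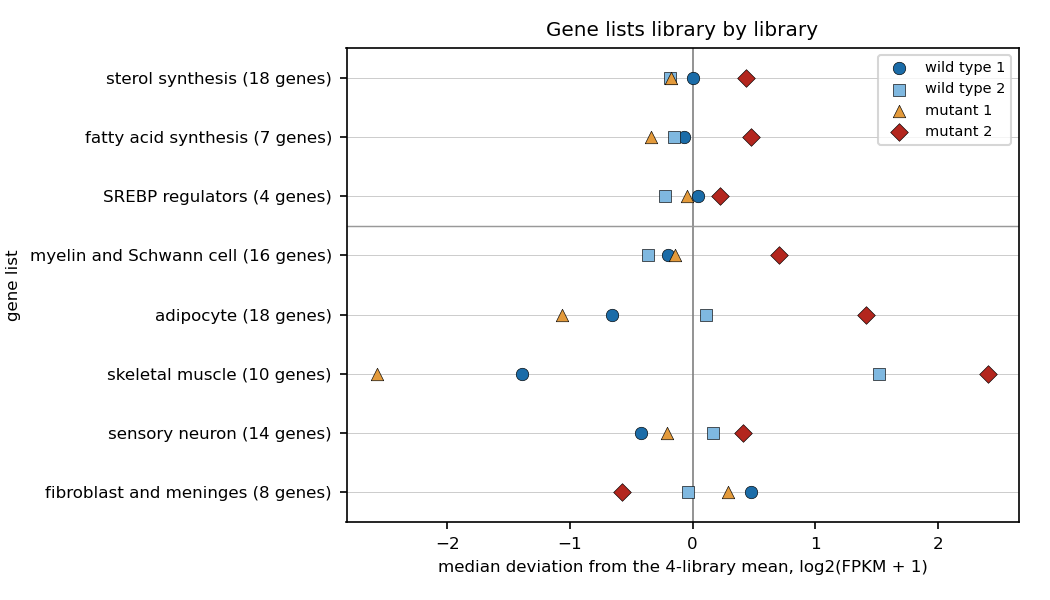
Median deviation from the mean of the 4 libraries in log2(FPKM + 1) (horizontal) for each gene list (vertical), with 1 point for each library. The sterol arm and the regulators share with myelin their lowest point in wild type 2. For the sterol arm that is nearly a tie, at -0.185 in wild type 2 and -0.173 in mutant 1, against -0.365 and -0.146 for myelin. Erythrocyte and satellite glia markers, also lowest in wild type 2, are not drawn. The fatty acid arm shares with fat and skeletal muscle its lowest point in mutant 1. Mutant 2 is highest in each list drawn except fibroblast and meninges.

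Between the mutants, the median step of each arm was smaller than that of the myelin or the fat markers. From mutant 1 to mutant 2 the median step was 0.62 log2 units for the sterol arm, 0.77 for the fatty acid arm and 0.26 for the regulators, against 0.85 for myelin and 2.59 for fat. From wild type 1 to wild type 2 it was -0.20 for the sterol arm, -0.048 for the fatty acid arm and -0.26 for the regulators, against -0.18 for myelin and 0.78 for fat. By these medians the sterol arm and the regulators stepped in the direction of myelin in both genotypes, and opposite to fat in wild type. The fatty acid arm did so too, but in wild type by a small step with 4 of 7 genes below 0. From mutant 1 to wild type 2 its median step was 0.25, on the side of fat (1.20) and opposite to myelin (-0.25). That step was -0.092 for the sterol arm and -0.21 for the regulators. Over all genes tested the steps within genotype had medians of 0.046 (mutant) and 0.055 (wild type), and the step from mutant 1 to wild type 2 had a median of 0.068. The summed FPKM of the sterol arm came to 11.2% and 11.9% of that of the myelin markers (wild type) against 10.3% and 7.53% (mutant). For the fatty acid arm it came to 7.07% and 8.23% (wild type) against 6.47% and 4.999% (mutant). In this ratio mutant 2 was the lowest library for both arms, and both mutants lay below both wild types. Set against the adipocyte markers instead, the genotypes overlapped. The sterol arm came to 188% and 90.8% of the summed adipocyte markers (wild type) against 284% and 51.8% (mutant), and the fatty acid arm to 119% and 62.7% (wild type) against 178% and 34.4% (mutant). In both, mutant 1 was the highest library and mutant 2 the lowest.

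**Figure D4:**
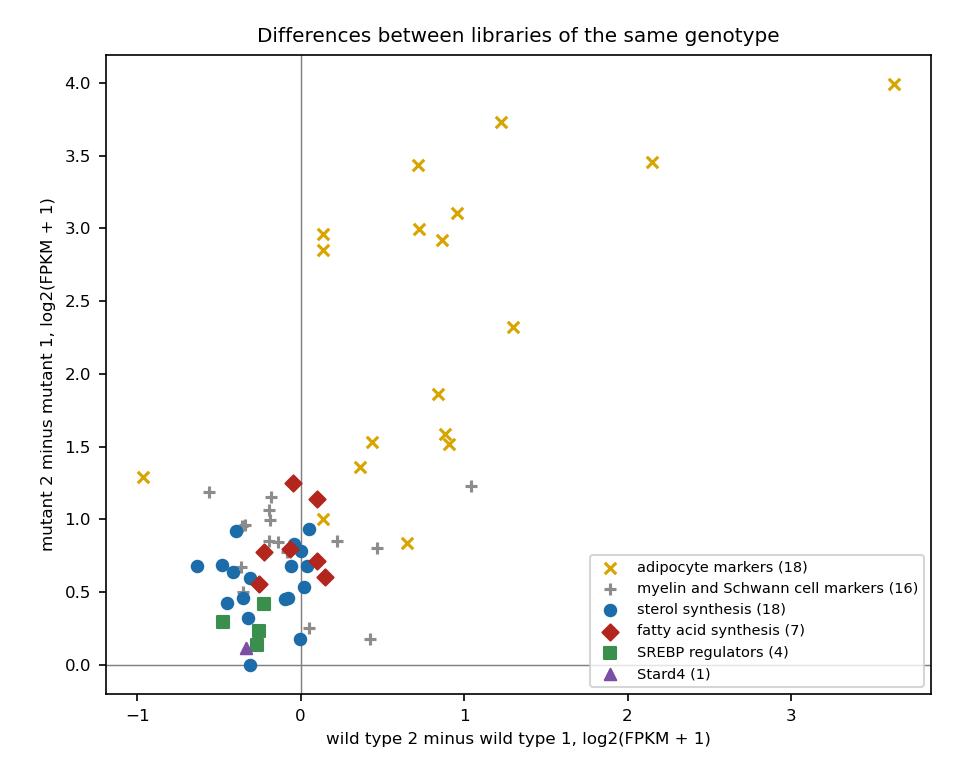
Each point is 1 gene, placed by wild type 2 minus wild type 1 (horizontal) and mutant 2 minus mutant 1 (vertical), both in log2(FPKM + 1). Adipocyte markers spread to the upper right, while most sterol genes and all 4 regulators lie left of 0 with most myelin markers.

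Other genes of the same pathways were taken as lists of their own. Of 11 further genes of sterol synthesis, uptake and SREBP control, 10 were tested, 0 passed the adjusted threshold in either direction with limma, and the median log2 difference was 0.046. Npc2, a lysosomal cholesterol carrier, was at 72.0 and 70.7 FPKM (wild type) against 69.6 and 79.0 FPKM (mutant).

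Of 26 further fatty acid genes in the matrix, 0 of 26 passed with limma, the median was 0.17, and 24 of 26 were highest in mutant 2. Tecr, the last enzyme of each elongation round, was the most abundant, with 404 and 439 FPKM (wild type) against 406 and 571 FPKM (mutant). Elovl5, an elongase of polyunsaturated fatty acids, was at 125 and 114 FPKM (wild type) against 127 and 86.5 FPKM (mutant), lowest in mutant 2. Slc25a1, the citrate carrier that exports acetyl units from mitochondria, was at 95.9 and 100.6 FPKM (wild type) against 91.8 and 144 FPKM (mutant).

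Among genes of sterol efflux and of sphingolipid synthesis, 5 of 9 in each list were highest in mutant 2. Of the 9 efflux and LXR genes, which act when sterols are in excess, 0 passed with limma and the median was 0.13. Nr1h2, an LXR receptor, was at 41.6 and 44.7 FPKM (wild type) against 42.5 and 52.8 FPKM (mutant). Cyp27a1, a sterol hydroxylase, ran the other way in mutant 2, being at 26.3 and 34.6 FPKM (wild type) against 29.4 and 22.3 FPKM (mutant). Nr1h3, the other LXR receptor, was at 11.3 and 12.5 FPKM (wild type) against 11.9 and 16.8 FPKM (mutant). Of the 9 sphingolipid genes, 0 passed and the median was 0.11. Ugt8a, which makes the galactolipid of myelin, was at 76.1 and 51.4 FPKM (wild type) against 68.0 and 111 FPKM (mutant). Cers2, which joins very long chains to ceramide, was at 125 and 119 FPKM (wild type) against 119 and 194 FPKM (mutant). Degs1, a ceramide desaturase, was nearly level at 154 and 157 FPKM (wild type) against 160 and 150 FPKM (mutant).

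The authors' deposited table lists 150 genes past its limits, which include a log2 fold change of 1 in either direction, and 0 of the 30 members are among them. The largest ratio of mutant to wild type group means among the members was 1.46 (Elovl6), short of that fold limit. Their absence from the table was therefore set by fold size and says nothing about their q-values. It holds 3 of the 18 adipocyte markers. In the authors' deposited table, Adipoq has a log2 fold change of 1.28 (q = 0.00742), Cidec of 1.43 (q = 0.00742) and Plin1 of 1.34 (q = 0.0182). In the matrix these rises rest on mutant 2, since each of the 3 was lowest in mutant 1. Cidec, a lipid droplet protein, was at 9.57 and 16.4 FPKM (wild type) against 5.08 and 64.9 FPKM (mutant).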

How the data were processed

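RNA of 4 DRG samples was compared, 2 wild type and 2 mutant, grouped by the sample titles. Per the file headers, the authors deposited FPKM for each gene and sample, and a list of genes with group FPKM, log2 fold change, p-value and q-value, laid out as Cuffdiff output. The submitters' processing notes name the build mm10 and the tools Cufflinks 2.2.1, TopHat2 2.1.2 and CASAVA. The sources used here do not state settings or library scaling. Each deposited gene has 1 FPKM or more in at least 1 sample. Read counts could not be recovered, since only 6 genes had values above 0 and under 0.1 FPKM in 2 or more samples.

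Values were transformed as log2(FPKM + 1), which understates changes of low genes, and fitted with limma 3.58.1 (R 4.3.3) using a mean-variance trend. Tested were 14040 genes whose group mean reached 1 FPKM in 1 or both groups, all 30 members among them. P-values were two-sided with Benjamini-Hochberg adjustment, on 2 residual and 3.44 prior degrees of freedom. Since separate animals are not stated in the labels, the p-values reflect sample-to-sample spread that may be technical. The members and lists were chosen with earlier results of these data known, and the arms are described by counts and medians without a test. All members are named, Prdm12 and Avil, and the 3 genes of highest mean FPKM of each related list, some of which are not reported here. Xist, Adipoq, Cidec and Plin1 were named after their values were seen. Alternatives changed the pseudocount, filter, scaling, variance prior, replicate block and samples. Promoter windows and their positions come from RefSeq on GRCm38.p6, and the chromosomes of the X-linked genes from the GENCODE annotation of GRCm38.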

Additional observations from a re-analysis of the deposited data

How the results depend on the processing

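The count of 0 members past the adjusted threshold held in each of the 12 alternatives, including the replicate block, where 61 of 14040 genes passed in limma. Samples of the 2 genotypes share only a replicate number, and no label ties them. Their within-genotype differences correlated over genes with r = 0.481 across genotypes (a description over 14040 genes), and the smallest adjusted p of a member under the replicate block was 0.539. Pseudocounts of 0.1 and 0.01 FPKM, no filter, a minimum of 5 FPKM and a common variance prior turned no member's direction. Rescaling by median ratios gave 3 members, and quantile normalization 5, above both wild types, and the latter turned Stard4 to 0.015; the cause was not tested.

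Leaving out 1 sample in turn moved most values. Members above both wild types ran from 1 to 28 and members below from 0 to 10. In those fits the 28 and 10 came without mutant 1 and without mutant 2, where 40.6% and 37.2% of all genes lay in the same direction. The sterol arm's median ran from -0.033 to 0.58, the fatty acid arm's from -0.22 to 0.67 and that of the regulators from 0.026 to 0.32. Without mutant 2, 18 of 30 members turned direction, and the members' median of -0.034 lay near that of all genes (-0.040). Members that turned in at least 1 such fit had these ranges of the log2 difference: Acaca -0.29 to 0.51, Acat2 -0.049 to 0.74, Acly -0.22 to 0.38, Dhcr7 -0.19 to 0.26, Ebp -0.22 to 0.093, Elovl1 -0.018 to 0.76, Elovl6 -0.17 to 0.97, Fasn -0.29 to 0.96, Fdft1 -0.017 to 0.52, Fdps -0.11 to 0.82, Hmgcs1 -0.064 to 0.53, Hsd17b7 -0.089 to 0.59, Idi1 -0.067 to 0.57, Insig1 -0.11 to 0.37, Lss -0.10 to 0.82, Mvd -0.13 to 0.70, Pmvk -0.015 to 0.66, Scd1 -0.40 to 0.31, Sqle -5.62e-05 to 0.68, Srebf2 -0.020 to 0.40 and Stard4 -0.18 to 0.15. A lone sample is assumed there to vary like the other group. The depth behind the FPKM values is unknown.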
